A study of Mus musculus with 2 samples.

Results

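The genes described here are those of glutathione conjugation and of the antioxidant response that the transcription factor NRF2 controls. They were chosen by name: every glutathione S-transferase of the alpha, kappa, mu, omega, pi, theta and zeta classes (Gst), every glutathione peroxidase (Gpx) and peroxiredoxin (Prdx), and 14 further genes of glutathione synthesis, the thioredoxin system and the NRF2 pathway. The rule found 49 of the 19073 features measured. Genes without a feature, such as Gpx4 and Gsta1, could not be included. Of these, 35 reached 10 CPM (a gene's UMIs rescaled to a common total of all UMIs in the sum) in hepatocytes of at least 1 library and are compared below. The other 14 were under this minimum.

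Glutathione is the main small thiol of the hepatocyte. Glutathione S-transferases join it to reactive compounds, glutathione peroxidases and peroxiredoxins remove peroxides, and glutathione reductase and thioredoxin reductase return the oxidised forms to use. NRF2 (gene Nfe2l2) is held back by KEAP1 and, when released, binds antioxidant response elements in the promoters of many of these genes. Carbon tetrachloride (CCl4) is made toxic by the cytochrome CYP2E1 of hepatocytes around the central vein at the end of the lobule opposite to the portal vein.

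The hepatocytes came from male p16-Tom mice, heterozygous for p16-CreERT2 and for a Cre-dependent tdTomato reporter at the Rosa26 locus. Both groups carried these alleles, and both received CCl4 for 4 weeks and tamoxifen, which makes the fluorescence permanent in cells that transcribe p16Ink4a at that time. From fixed and dissociated tissue, cells stained for nuclei and for mitochondria were collected as Tom- (p16low) or Tom+ (p16high) hepatocytes. Each fraction gave 1 library, read with the probe-based Flex assay, and the age and number of mice are not given in the sources used here. A group of 1 library allows neither a test nor a p-value, and every interval is at 95% and covers counting error only. Probes differ between genes, so levels are compared only for the same gene.

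After the filters, 10664 Tom- and 9564 Tom+ hepatocytes were analysed, with 380828750 and 380546316 UMIs. Leaving out clusters removed 9495 of 20159 Tom- and 3814 of 13378 Tom+ cells that had passed the cell filter, an uneven loss. The largest cluster left out, for few genes, held 4200 Tom- and 417 Tom+ cells. The limits used here for leaving out other cells kept clusters named Kupffer-like (176 Tom- and 48 Tom+ cells) and cholangiocyte-like (53 and 17 cells) in this set. The libraries shared 503 barcodes, 372 of them among cells that passed the cell filter. Each hepatocyte was placed along the lobule by an index of 11 pericentral and 14 periportal landmark genes, none of them a member, and cells were divided into 6 bins, from bin 1 at the portal end to bin 6 at the central end. The Tom- library put 2632 cells in bin 1 and 792 in bin 6, the Tom+ library 827 and 2478. Hepatocyte markers were high in every bin (115185 to 159740 CPM for the 5 together), and the markers of endothelial cells summed to between 33.7 and 53.8 CPM and those of Kupffer cells to between 146 and 257 CPM, both higher in the Tom- library in each of the 6 bins. Stellate, cholangiocyte and leukocyte markers summed to at most 46.4, 12.6 and 2.65 CPM. Leaving out the 10% of hepatocytes of each library with the most RNA of endothelial, immune and stellate markers left the same members past the limit in the comparison of the libraries below. Dbp, an output gene of the circadian clock, ranged from 5.83 to 12.3 CPM over the Tom- bins and from 16.2 to 28.7 CPM over the Tom+ bins. Whether the animals behind the libraries were collected at different times cannot be told apart from the sort.

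The core letters of the antioxidant response element were looked for in the promoters of the members. RefSeq promoters (GRCm38.p6, 250 bases before to 50 after a start site) were found for 42 of the 49 members. The core TGACNNNGC was searched on both strands and occurred in 8 members, which is 19.0% of those matched, against 14.0% of 27025 genes and 17.3% of the genes with a promoter that reached the minimum level. Of the 30 matched members that reached it, 7 held the motif, and no test was made of these shares. The stricter form TGACTCAGC, a subset of the first, was found in 1 member, Prdx1, and in 0.503% of all genes. A match of these letters is a description and not a measured binding site. Other spellings of the element, and stretches outside these promoters, were not searched, so a member without a match may still hold an element. The windows around 5 of the 8 matches are shown as examples from different roles (a transferase, the modifier subunit of glutathione synthesis, a peroxiredoxin and the reductases of the thioredoxin and peroxiredoxin systems). For Txnrd1, 1 of 3 promoters held the core. Each reads 5′ to 3′ on the strand of its gene, capitals mark the match, and the positions are chr1:21240440-21240496 for Gsta3, chr3:122245399-122245455 for Gclm, chr4:116685442-116685498 for Prdx1, chr2:152105528-152105573 for Srxn1 and chr10:82859090-82859146 for Txnrd1, all on the plus strand.
Gsta3: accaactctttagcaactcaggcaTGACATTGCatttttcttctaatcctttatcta
Gclm: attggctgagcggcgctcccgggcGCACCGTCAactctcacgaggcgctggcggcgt
Prdx1: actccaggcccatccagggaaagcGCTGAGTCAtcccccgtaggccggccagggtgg
Srxn1: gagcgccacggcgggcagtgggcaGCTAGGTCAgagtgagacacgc
Txnrd1: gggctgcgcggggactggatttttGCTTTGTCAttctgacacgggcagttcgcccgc
The letters of the match read TGAC first in Gsta3 and are reversed in the other 4, which carry the core on the opposite strand.

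The mu class lies in a single cluster of 7 genes on chromosome 3 (mm10, 107895821 to 108044894, 149 kb), in the order Gstm5, Gstm7, Gstm6, Gstm3, Gstm2, Gstm1, Gstm4. The promoters of Gstm3 (chr3:107969125-107969424) and Gstm1 (chr3:108017769-108018068, 1 of its 2 RefSeq starts), both on the minus strand, are shown because these genes had the steepest gradients together with Gstm2 and the largest differences between the libraries. They are printed without capitals, since neither holds the core.
Gstm3: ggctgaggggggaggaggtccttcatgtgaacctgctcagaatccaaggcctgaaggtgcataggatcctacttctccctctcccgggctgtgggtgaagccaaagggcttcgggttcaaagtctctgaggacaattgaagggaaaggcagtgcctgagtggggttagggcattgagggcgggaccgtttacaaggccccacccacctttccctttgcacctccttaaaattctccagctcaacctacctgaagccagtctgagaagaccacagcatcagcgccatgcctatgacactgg
Gstm1: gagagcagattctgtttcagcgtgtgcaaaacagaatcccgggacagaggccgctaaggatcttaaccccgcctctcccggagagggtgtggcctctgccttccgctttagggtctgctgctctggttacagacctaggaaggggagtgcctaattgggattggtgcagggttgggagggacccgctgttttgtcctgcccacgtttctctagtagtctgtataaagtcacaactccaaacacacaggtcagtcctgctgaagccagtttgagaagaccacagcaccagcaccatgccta
In an alignment over the full length, the pair was identical at 62.3% of the 300 bases with this start of Gstm1 and at 49.0% with its other start. The other mu pairs ran from 47.0% to 57.0%. Of the 50-base windows of the longest Gstm1 transcript, 10% were found letter for letter in that of Gstm3. The assay reads stretches of about this length, and how far its probes separate these genes was not examined.

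Along the lobule, 9 of the 35 members were at least 2-fold higher in bin 6 than in bin 1 in both libraries, where 3.65% of the 7845 genes tested were. By library the count was 9 in Tom- (3.9% of all genes) and 9 in Tom+ (4.12%). A single member, Gstt3, was at least 2-fold higher at the portal end in both libraries, where 2.38% of all genes were (2.54% in Tom- and 2.63% in Tom+). The sign of the gradient was the same in both libraries for 33 of 35 members, 24 rising towards the central vein and 9 falling. The shares of all genes with these signs were not computed, so these counts do not set the members apart. The median log2 gradient was 0.39 in Tom- and 0.33 in Tom+, beside 0.18 and 0.21 over all genes tested.

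**Figure D1:**
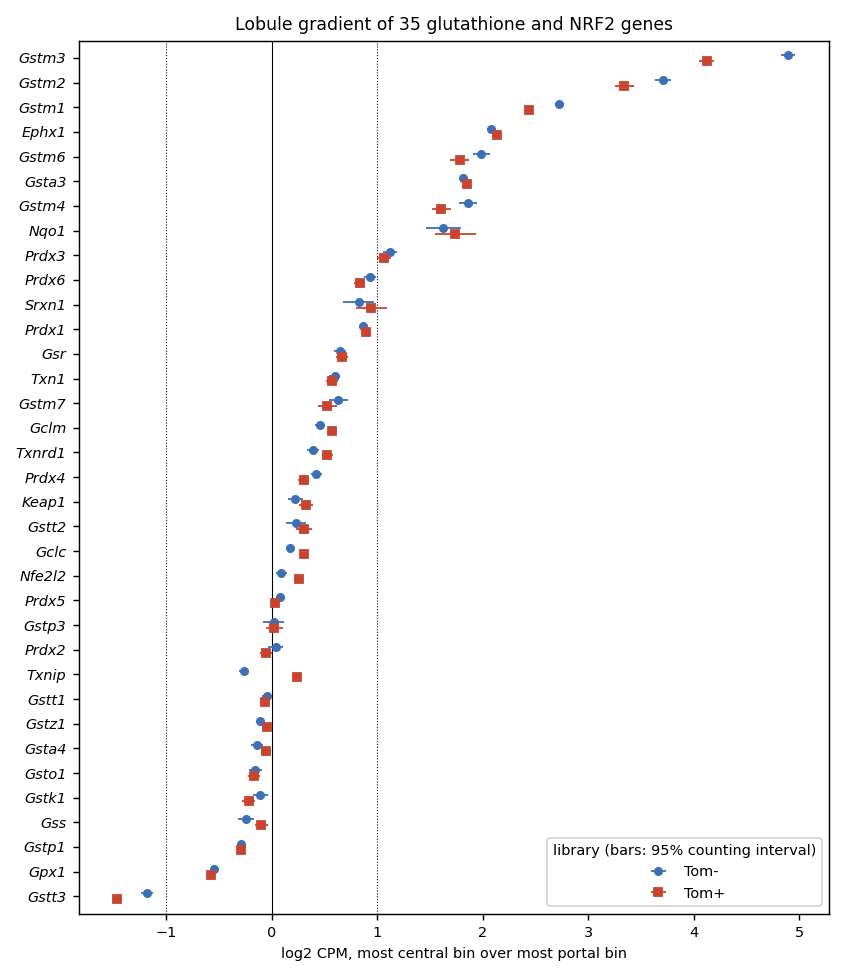
Log2 CPM of the most central over the most portal bin for each of the 35 members in Tom- (circles) and Tom+ (squares), with 95% counting intervals and dotted lines at 2-fold. Gstm3 is at the top with 4.90 and 4.12, Gstt3 is alone past the portal line with -1.18 and -1.46, and Txnip and, near 0, Prdx2 have opposite signs in the libraries.

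Gstm3, a mu-class transferase, had the steepest gradient. In Tom- hepatocytes it was at 22.6, 27.5, 53.2, 139, 347 and 673 CPM from bin 1 to bin 6. In Tom+ hepatocytes it was at 47.9, 55.5, 102, 218, 433 and 834 CPM. The log2 gradient was 4.90 (4.83 to 4.96) in Tom- and 4.12 (4.05 to 4.19) in Tom+. Most of the rise fell between bins 3 and 6, and the Tom+ level was higher in every bin.

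Gstm2 followed the same course. It was at 17.8, 20.7, 46.5, 97.7, 164 and 233 CPM in Tom-, and at 27.1, 27.7, 58.1, 104, 173 and 275 CPM in Tom+. Its log2 gradient was 3.71 (3.63 to 3.79) and 3.34 (3.25 to 3.44). Gstm1 rose less steeply. It was at 87.4, 101, 145, 225, 363 and 578 CPM in Tom-, and at 140, 143, 217, 333, 499 and 759 CPM in Tom+, gradients of 2.73 (2.69 to 2.77) and 2.44 (2.39 to 2.48).

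Gstm6 was at 27.6, 30.0, 38.8, 49.9, 76.1 and 109 CPM in Tom-, and at 34.3, 34.3, 42.8, 58.1, 76.8 and 118 CPM in Tom+. Its gradient was 1.99 and 1.78, close to that of Gstm4 with 1.86 and 1.61. Gstm7, the neighbour of Gstm6 in the cluster, had the weakest gradient of the 6 mu genes past the minimum at 0.63 and 0.52. Gstm5 at the far end was under the minimum with 3.17 and 3.48 CPM and had gradients of 0.42 and 0.17. Past the minimum, the class ran from over 4 log2 units for Gstm3 to less than 1 for Gstm7, and in each of these 6 genes the gradient was smaller in Tom+ than in Tom-. The same held for most pericentral landmark genes, such as Slc1a2 (8.03 in Tom- and 6.83 in Tom+) and Glul (6.21 and 5.80). Avpr1a (3.89 and 3.96) and Rgn (2.65 and 2.69) went slightly the other way.

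**Figure D2:**
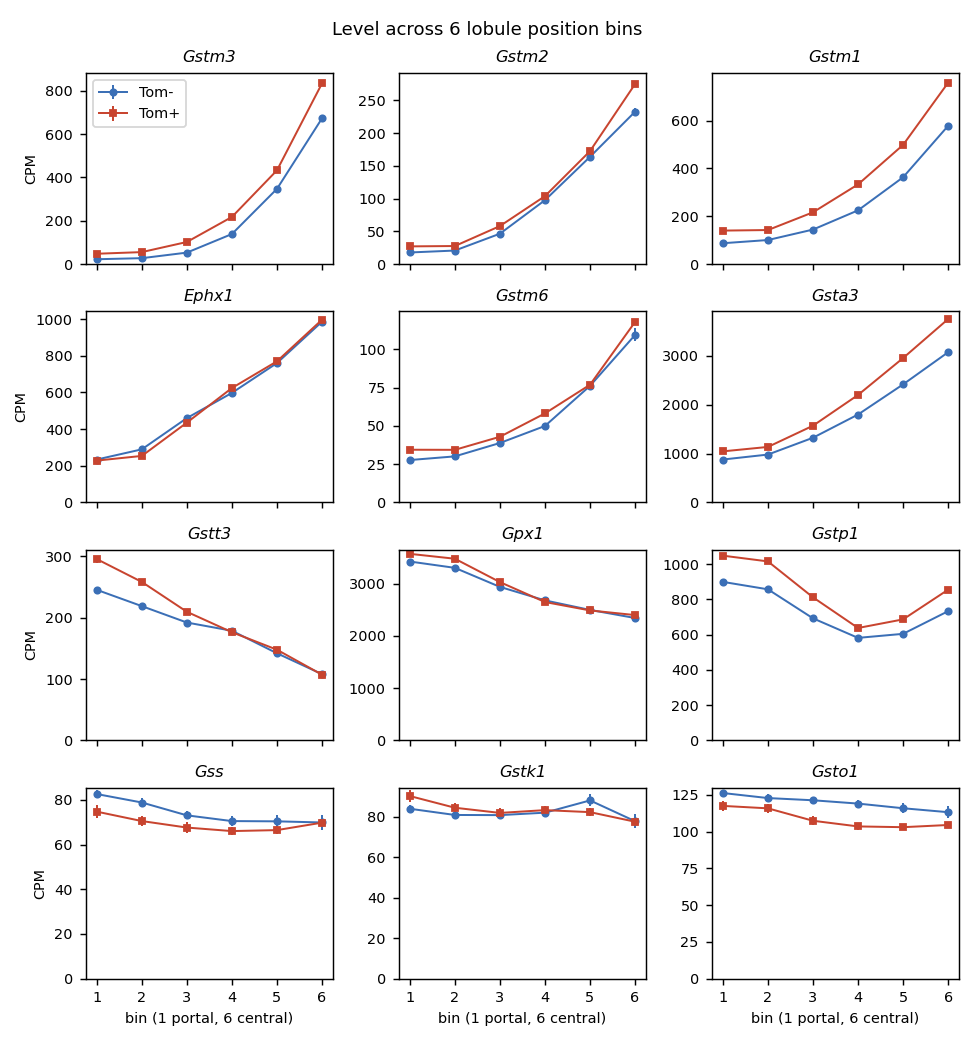
CPM in each of the 6 lobule bins for the 6 most central and the 6 most portal members by central-over-portal ratio, Tom- in circles and Tom+ in squares, with 95% counting intervals mostly hidden by the symbols. The mu genes, Ephx1 and Gsta3 climb to the central end, Gstt3 and Gpx1 fall, and Gstp1 is lowest in bin 4.

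Among the other classes, Gsta3 (alpha class) was the only transferase past the minimum level with a central gradient past 2-fold. It was at 876, 978, 1323, 1799, 2418 and 3077 CPM in Tom-, and at 1044, 1135, 1570, 2201, 2958 and 3757 CPM in Tom+. Its gradient was 1.81 (1.80 to 1.83) and 1.85 (1.83 to 1.86), so Gsta3, unlike the mu genes, rose as steeply in Tom+ as in Tom-. Gsta4, of the same class, had gradients of -0.14 and -0.06.

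Gstt3, a theta-class transferase, ran the other way. It was at 245, 219, 192, 179, 142 and 108 CPM in Tom-, and at 296, 258, 210, 176, 148 and 107 CPM in Tom+. The gradient was -1.18 (-1.24 to -1.13) and -1.46 (-1.50 to -1.42), and both libraries met at the central end. The theta genes lie side by side on chromosome 10 (mm10, 75774115 to 75837424), and the others measured there did not share the pattern: Gstt1 had gradients of -0.05 and -0.06, and Gstt2 of 0.23 and 0.30.

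Gstp1, the main pi-class transferase, had a trough in the middle of the lobule. It was at 899, 857, 692, 582, 605 and 733 CPM in Tom-, and at 1048, 1015, 812, 638, 687 and 855 CPM in Tom+. Bin 4 was the lowest in both libraries and the net gradient was -0.29 in each. Gstp1 shares 62.3% of its transcript's 50-base windows with Gstp2, which was listed at only 0.202 and 0.688 CPM, so how far the probes separate this pair is uncertain.

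The other transferases were nearly flat. Gstk1, a mitochondrial and peroxisomal transferase, was at 83.9, 80.8, 80.7, 81.9, 88.0 and 77.7 CPM in Tom-, and at 90.1, 84.4, 81.8, 83.2, 82.2 and 77.5 CPM in Tom+. Gsto1 (omega class) was at 126, 123, 121, 119, 116 and 113 CPM in Tom-, and at 118, 116, 107, 104, 103 and 105 CPM in Tom+. Gstz1, which also acts in tyrosine breakdown, had gradients of -0.11 and -0.05, and Gstp3 of 0.02 and 0.02.

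Glutathione synthesis and recycling showed small gradients. Gclc and Gclm, the catalytic and modifier subunits of glutamate-cysteine ligase, the rate-limiting enzyme, rose by 0.17 and 0.46 log2 units in Tom- and by 0.30 and 0.57 in Tom+. Glutathione reductase, Gsr, rose by 0.65 and 0.66. Glutathione synthetase, Gss, fell slightly: it was at 82.6, 78.8, 73.1, 70.5, 70.4 and 69.9 CPM in Tom-, and at 74.7, 70.5, 67.6, 66.0, 66.5 and 69.8 CPM in Tom+. None of these 4 genes reached 2-fold in either library.

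The peroxide-removing enzymes went in different directions. Gpx1, the cytosolic glutathione peroxidase, was the only measured Gpx gene past the minimum and fell towards the central vein. Gpx4 was not among the features measured. Gpx1 was at 3427, 3305, 2941, 2682, 2499 and 2344 CPM in Tom-, and at 3574, 3480, 3033, 2651, 2490 and 2401 CPM in Tom+, gradients of -0.55 and -0.57. Of the peroxiredoxins, the mitochondrial Prdx3 rose by 1.12 and 1.07, Prdx6 by 0.93 and 0.83, Prdx1 by 0.87 and 0.90 and the Prdx4 of the endoplasmic reticulum by 0.42 and 0.30. Prdx2 (0.04 and -0.06) and Prdx5 (0.08 and 0.03) were flat.

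In the thioredoxin system, thioredoxin itself (Txn1) rose by 0.59 and 0.57, thioredoxin reductase Txnrd1 by 0.39 and 0.53, and Srxn1, which repairs overoxidised peroxiredoxins, by 0.82 and 0.94. Txnip, which binds thioredoxin and follows the glucose supply of the cell, was the exception and is described with the comparison of the libraries. Among NRF2 and its classical targets, Ephx1 (microsomal epoxide hydrolase) was at 233, 289, 460, 597, 760 and 986 CPM in Tom-, and at 228, 253, 435, 624, 770 and 997 CPM in Tom+. Its gradient was 2.08 (2.05 to 2.11) and 2.13 (2.10 to 2.16). Nqo1, a quinone reductase, rose by 1.63 (1.46 to 1.79) and 1.74 (1.55 to 1.94). Nfe2l2 itself rose by only 0.09 and 0.26, and Keap1 by 0.22 and 0.33.

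Tom+ was then compared with Tom- at matched position, as the mean of the 6 log2 ratios, 1 per bin, with a limit of log2 0.3 taken from the study's methods. Without matching, 12 of 35 members were past this limit in the Tom+ direction and 0 in the other, where 8.55% and 2.83% of all genes were. All 9 members with a central gradient were among the 12. At matched position 3 members were past it, Gstm3, Gstm1 and Gstt2, where 2.31% of all genes were, and 0 were lower, where 0.637% were. The median over the 35 members moved from 0.11 without matching to 0.03 with it, beside 0.04 and -0.01 over all genes tested. The transferases Gstm1, Gstm3 and Gsta3 and the genes Gpx3, Nqo1 and Txnip were also assayed by qPCR in the study. It picked Gpx3 and Nqo1 from its single-cell data and states no basis for the choice of the others. Their directions here are therefore not taken as independent evidence. The study reports Gpx3 and Nqo1 as higher in Tom+ hepatocytes around the central vein. Here Nqo1 was at 0.45 without matching, -0.01 at matched position and 0.11 (-0.03 to 0.25) in bin 6. Gpx3, under the minimum level, was at 0.81, 0.05 and -0.21 (-0.40 to -0.01). Neither mean at matched position shows a rise. Nqo1 was higher in Tom+ cells of the clusters described below.

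**Figure D3:**
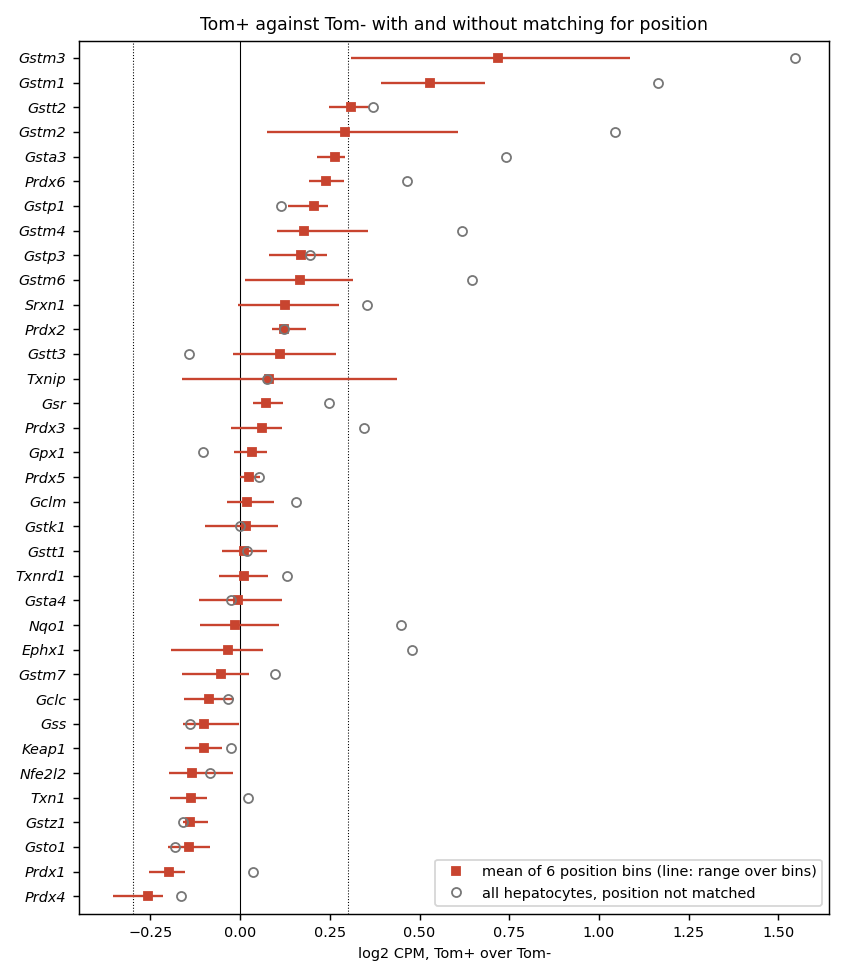
Log2 Tom+ over Tom- for each of the 35 members, as the mean of 6 position bins (squares, line for the range over bins) and over all hepatocytes without matching (open circles), with dotted lines at log2 0.3. Open circles of the central genes lie far to the right of their squares, and Ephx1 and Nqo1 fall from 0.48 and 0.45 to -0.04 and -0.01.

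Gstm3 was higher in Tom+ in 6 of 6 bins, by log2 1.09, 1.01, 0.94, 0.65, 0.32 and 0.31 from the portal to the central end, a mean of 0.72. The relative difference was largest where the gene was least expressed. Gstm1 was higher in 6 of 6 bins by 0.68, 0.50, 0.58, 0.57, 0.46 and 0.39, a mean of 0.53. Gstm2 fell just short of the limit with a mean of 0.29, and its ratio was 0.61 in bin 1, 0.07 in bin 5 and 0.24 in bin 6.

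The pericentral landmark genes shared the portal part of this pattern. Their median ratio was 0.39 in bin 1, where 10 of 11 were higher in Tom+, 0.16 in bin 2, 0.10 in bin 3, -0.05 in bin 4, -0.10 in bin 5 and 0.04 in bin 6. Single pericentral landmarks ran from -0.40 to 0.43 in bin 5 and from -0.29 to 0.61 in bin 6. As means over the bins they ran from -0.32 for Avpr1a to 0.78 for Oat, with Glul at 0.51. The landmarks also define the bins, so their ratios inside a bin are not independent of the matching. Glul, glutamine synthetase of the cells next to the central vein, was at 4.86 CPM in bin 1 of the Tom- library and at 7.82 CPM in bin 1 of the Tom+ library, which also held more central cells. The median position index was higher in Tom+ in every bin. In bin 1 it was 0.0520 in Tom- and 0.0622 in Tom+, and in bin 4 it was 0.566 and 0.599. The parts of central RNA and of this difference in index in the mu ratios of the portal bins were not tested. The 14 periportal landmarks had median ratios of -0.17, -0.18 and -0.36 in bins 4, 5 and 6, with 12, 13 and 13 of them lower in Tom+, so the bins did not match these genes exactly at the central end. In bins 5 and 6 Gstm1 was at 0.46 and 0.39 and Gstm3 at 0.32 and 0.31, and the part of this difference in position in those values was not tested.

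**Figure D4:**
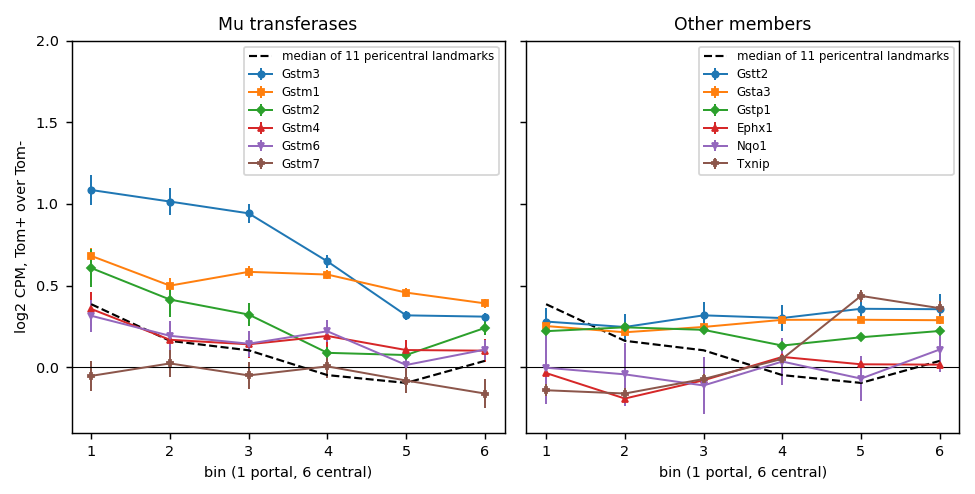
Log2 Tom+ over Tom- in each lobule bin for the 6 mu genes (left) and 6 other members (right), with 95% counting intervals, beside the median of the 11 pericentral landmarks (dashed). Gstm3 falls from 1.09 to 0.31 with position as the landmarks do between bins 1 and 5, Gstm1, Gstt2 and Gsta3 stay above 0 in every bin, and Txnip crosses from below to above 0.

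Gstt2 had almost no gradient and a ratio that varied little with position. It was at 39.4, 39.7, 36.1, 35.6, 37.8 and 46.2 CPM in Tom-, and at 47.8, 47.1, 45.0, 43.9, 48.5 and 59.1 CPM in Tom+. The ratios ran from 0.25 to 0.36 with a mean of 0.31 (0.28 to 0.34), so the gene lies at the limit. It fell inside the limit at 0.10 without the 3 nearly all Tom+ clusters described below, at 0.21 with cells thinned to 5000 UMIs, at 0.23 as the mean over cells, and at 0.28 both without cells over 60000 UMIs and with few-gene clusters kept. At a minimum of 50 CPM it was not counted. Members just under it were Gstm2 (0.29), Gsta3 (0.26), Prdx6 (0.24) and Gstp1 (0.21). For Gsta3 and Gstp1 the ratio hardly varied with position, from 0.21 to 0.29 and from 0.13 to 0.24.

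Taken by single bins, 5 members were past the limit in the Tom+ direction in bin 1 and 0 in the other, where 3.26% and 1.52% of all genes were. In bin 6 there were 4 and 1, where 1.73% and 1.12% were. The bin 1 members were all of the mu class, and those of bin 6 were Gstm1, Gstm3, Gstt2 and Txnip, with Prdx4 lower at -0.35.

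Across all bins, 13 members were higher in Tom+ in 6 of 6 bins and 9 lower in 6 of 6, where 23.2% and 25% of all genes were. Of the 6 mu genes past the minimum 5 were among the 13, with Gsta3, Gstt2, Gstp1, Gstp3, Gsr, Prdx2, Prdx5 and Prdx6. The 9 lower ones were Prdx4 (-0.26), Prdx1 (-0.20), Gsto1, Gstz1, Txn1, Nfe2l2, Keap1, Gss and Gclc, with means from -0.26 to -0.09. NRF2 and its repressor were thus both slightly lower, at -0.13 and -0.10. Over the bins Nfe2l2 ran from -0.20 to -0.02 and Keap1 from -0.15 to -0.05. In bin 6 the interval of each included 0 (-0.07 to 0.03 and -0.12 to 0.02). Being lower in 6 of 6 bins does not set these genes apart, since 9 of 35 members and 25% of all genes were. Other genes of the NRF2 pathway had Nqo1 at -0.01, Ephx1 at -0.04, Gclm at 0.02, Gclc at -0.09, Txnrd1 at 0.01 and Srxn1 at 0.13. Each of the 9 lower members stayed inside the limit.

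Txnip was lower in Tom+ at the portal end and higher at the central end. It was at 263, 253, 247, 242, 208 and 219 CPM in Tom-, falling to the central end. In Tom+ it was at 238, 227, 235, 250, 281 and 281 CPM. The ratio was -0.14 (-0.18 to -0.11) in bin 1 and 0.36 (0.32 to 0.40) in bin 6, and its mean over bins of 0.08 describes neither end.

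Part of the Tom+ library formed hepatocyte clusters of at least 90% Tom+ cells. The 3 clusters held 1501, 487 and 21 Tom+ cells and 39, 35 and 1 Tom- cells, and the largest was led by H2-Q1, Ces2c, Snhg11, Dbp and Gstm3, itself a member. Dbp was at 67.2 and 65.7 CPM in the 2 large ones and at 0 CPM in the smallest. Of the clusters that were not nearly all Tom+, 1 of 46 Tom- and 14 Tom+ cells, led by Dmbt1, Spp1 and Mmp7, had 43.3 CPM. The remaining clusters ran from 4.93 to 17.4 CPM. Since the members helped to define the nearly all Tom+ clusters, the following values are a description. In bin 6 the clusters held 596 of the 2478 Tom+ cells, at a median index of 0.929, against 0.928 in the other Tom+ cells and 0.911 in Tom- cells.

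In that bin, Tom+ cells of the clusters had 14 of 35 members at log2 0.3 or more above Tom- cells and 1 at or below -0.3, where 12.6% and 5.9% of all genes were. In the other Tom+ cells 0 members were past the limit in either direction, where 0.765% and 1.08% were. Txnip was at 525 CPM in the clusters, 196 in the other Tom+ cells and 219 in Tom- cells. Gstm3 was at 1349, 656 and 673 CPM, and Gstt2 at 93.1, 47.3 and 46.2 CPM. For these 3 genes the other Tom+ cells lay near or below the Tom- level.

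Several other members were higher in the clusters than in both other sets of cells. Nqo1 was at 30.5 CPM in the clusters, 20.8 in the other Tom+ cells and 21.6 in Tom- cells. Gclm was at 285, 207 and 215 CPM, and Txnrd1 at 164, 124 and 127 CPM. Srxn1 was at 28.9, 23.0 and 22.0 CPM, and Nfe2l2 at 196, 135 and 152 CPM. Gsta4 was at 213, 127 and 137 CPM and Gstm2 at 371, 242 and 233 CPM. Gclc differed little, at 255, 233 and 242 CPM. Ephx1 was at 975, 1005 and 986 CPM, Prdx1 at 704, 608 and 704 CPM, and Txn1 at 124, 146 and 152 CPM. Prdx4 was lower in the clusters at 108, 153 and 181 CPM.

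**Figure D5:**
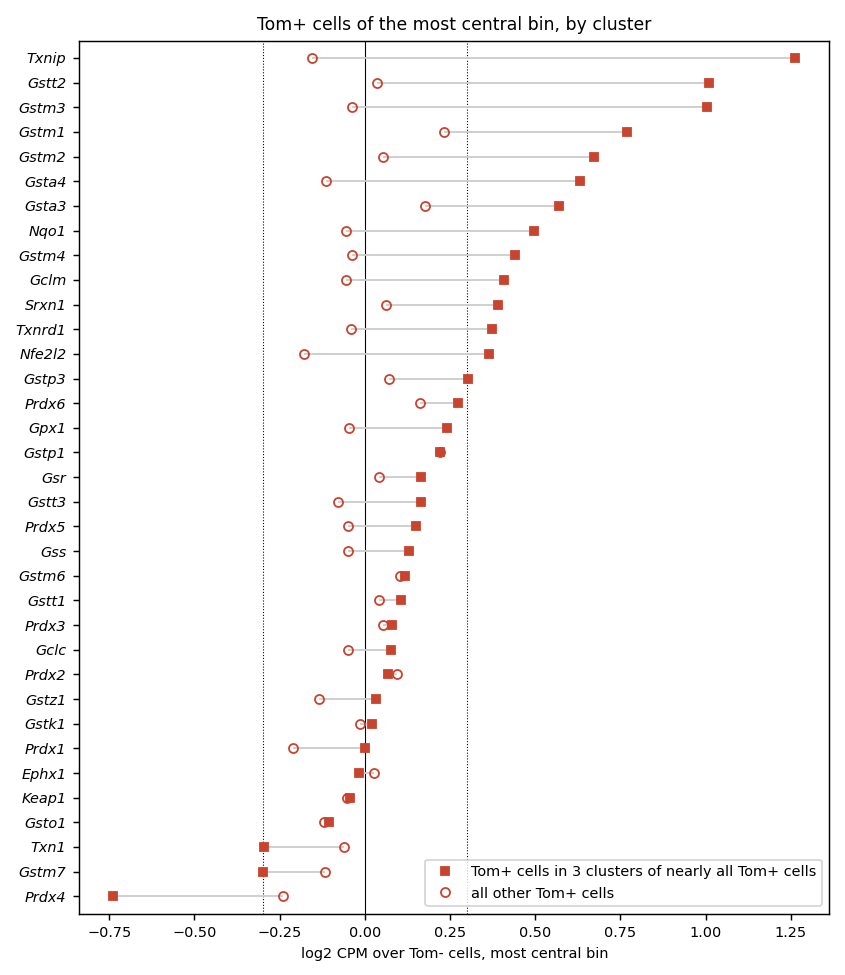
Log2 CPM over Tom- cells in the most central bin for each of the 35 members, in Tom+ cells of the 3 nearly all Tom+ clusters (filled squares) and in all other Tom+ cells (open circles), with dotted lines at log2 0.3. Txnip, Gstt2 and Gstm3 reach 1.26, 1.01 and 1.00 in the clusters, while every open circle lies between the dotted lines.

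Gstm1, Gsta3 and Gstp1 were above the Tom- level outside the clusters too, and for Gstp1 the difference was as large there as inside them. In bin 6 Gstm1 was at 986 CPM in the clusters, 680 in the other Tom+ cells and 578 in Tom- cells. Gsta3 was at 4568, 3476 and 3077 CPM, and Gstp1 at 855, 855 and 733 CPM. With the clusters left out of both libraries, 2 members remained past log2 0.3 over all bins, Gstm3 at 0.45 and Gstm1 at 0.39, where 1.42% of all genes were. Gstt2 then had 0.10. Among genes of the NRF2 pathway, Nqo1 then had -0.20, Ephx1 -0.09, Gclm -0.06, Gclc -0.11, Txnrd1 -0.07, Srxn1 0.06 and Nfe2l2 -0.25. Gstm3 kept ratios of 0.92, 0.87 and 0.76 in bins 1 to 3 but had -0.12 and -0.01 in bins 5 and 6, whereas Gstm1 ran from 0.24 to 0.53 over the bins. Txnip was then lower in Tom+ in every bin, from -0.30 to -0.13, with a mean of -0.22. Leaving these cells out removes cells found by being Tom+, and whether they come from particular animals cannot be told apart from the sort.

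Of 53 other genes of the network that were measured (cysteine supply, glutathione turnover, NADPH supply, export, scavenging and NRF2 partners), 47 reached the minimum. At matched position 4 were past log2 0.3 in the Tom+ direction and 0 in the other, beside the same 2.31% and 0.637% of all genes. The 4 were the carbonyl reductase Cbr1 (0.39), the exporter Abcc4 (0.34), the ferritin heavy chain Fth1 (0.32) and Ugdh (0.31), which makes UDP-glucuronate. Abcc4, at 5.10 CPM in Tom- and 12.8 CPM in Tom+, reached the minimum only through the library in which it was higher. With the nearly all Tom+ clusters left out of the same bins these values were 0.34, 0.13, 0.25 and 0.11. The cysteine supply group had 0 of 15 genes past the limit and the NADPH group 0 of 5, with medians of -0.00474 and 0.06.

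Lobule gradients in this wider network were most extreme for Abcc4 (4.36 in Tom- and 4.31 in Tom+), Csad of taurine synthesis (2.49 and 2.42) and the biliverdin reductase Blvrb (1.97 and 2.01). The smallest by the mean of both libraries were those of Cbs and Cth, which make cysteine from homocysteine, and of Gnmt. Cbs had -1.35 and -1.61, Cth -0.89 and -0.95, and Gnmt, which uses the methyl groups of the same cycle, -0.85 and -1.07. The cysteine and glutathione turnover group did not share a direction, with 6 of 15 genes rising to the central end in both libraries and 7 falling, and medians of -0.02 and -0.01.

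Single cells of 1 bin differed in these genes as well. In bin 6, cells were thinned to 20000 UMIs, which kept 591 Tom- and 1944 Tom+ cells and left out 201 and 534 shallower ones, and the spread between cells beyond counting was taken as a coefficient of variation. It was highest for Txnip (0.95 in Tom- and 0.96 in Tom+), Gstm3 (0.70 and 0.81) and Gstm2 (0.59 and 0.72), and lower for Gstm1 (0.44 and 0.45), Gsta3 (0.19 and 0.23), Gpx1 (0.18 and 0.21) and Gstz1 (0.15 and 0.13). Gstm3 and Gstm2 thus had both steep gradients and a wide spread, and the remaining slope inside the bin was not separated from that spread. Across these cells, which share a library and a bin, Pearson correlations were taken on the square roots of the thinned UMIs. Ephx1 and Gstp1 had 0.49 in Tom- and 0.48 in Tom+. Both genes also rose from bin 4 to bin 6. In bin 1 the same pair had 0.02 and -0.06. Gstm3 and Gstm1 were at 0.45 and 0.60 in bin 6. The Tom+ cells of bin 6 include those of the nearly all Tom+ clusters, where Gstm3, Gstm1 and Txnip were higher than in the other Tom+ cells. The part of this mixture in the Tom+ spread and correlations was not tested, nor was that of sequence shared between Gstm3 and Gstm1. Member pairs were ranked by the lower of their bin 6 values, and these pairs were named with that ranking known.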

How the data were processed

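The authors counted UMIs with Cell Ranger 7.2.0 (mm10 reference, per the labels) from a probe-based Flex library of each sort fraction, with probes for tdTomato added, and deposited raw counts per gene and cell. The study's filters were applied: a mitochondrial fraction of at most 0.05, 2000 to 10000 genes and at most 100000 UMIs per cell. They left 20159 Tom- and 13378 Tom+ cells of 23220 and 16339 barcodes with 681279005 and 715333889 UMIs. Cells were clustered (2000 variable genes, 30 principal components, 20 neighbours, Leiden resolution 0.8; Python 3.11.15, leidenalg 0.10.2), and clusters with few genes or with Ptprc, Dcn or Pecam1 were left out, the kinds of cluster the study's methods name. The limits were set here: few genes meant a median below 0.75 of the median over the whole data set, and a marker counted as present from 2.5 times its level in the median cluster. No doublet caller was run, and leaving out cells over 60000 UMIs was an alternative.

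The position index was the mean of the pericentral landmarks over the sum of that and the periportal mean, each landmark scaled by its own mean and used at 20 CPM or more. Bin limits were sextiles with both libraries at equal weight. UMIs were summed per library and bin and expressed as CPM. Poisson intervals are exact, as are the conditional ones for ratios. Log2 values carry a pseudocount of 0.5 UMIs. Genes needed 10 CPM in either library and 20 UMIs over both. Gene positions are from GENCODE for mm10. The script was tested on simulated data. The members and lists were chosen with earlier results of these data known. Bin values are given for the 6 members at either extreme of the gradient, for those past log2 0.3, and for Txnip, which was added after its values were seen, as were the split by cluster, the promoter search and the correlations.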

Additional observations from a re-analysis of the deposited data

Results flagged for a closer look

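Txnip had gradients of opposite sign in the libraries, with a log2 central-over-portal ratio of -0.26 in Tom- and 0.24 in Tom+ hepatocytes. Seen the other way, its log2 ratio of Tom+ over Tom- was -0.14 in the most portal and 0.36 in the most central bin. Without the nearly all Tom+ clusters the ratio was -0.27 in the most portal and -0.14 in the most central bin. Txnrd1 also changed sign between the ends, by a small amount, from -0.0589 in the most portal to 0.0782 in the most central bin. Without the nearly all Tom+ clusters it did not, with -0.0933 in the most portal and -0.0321 in the most central bin. These differences between the ends of the lobule were not tested, since each group is 1 library.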

How the results depend on the processing

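No paired analysis was possible because the 2 groups have 1 library each. Of the recomputed counts, 118 stayed within 1.5 times and 14 moved. Of the values of single genes, 576 stayed inside their counting interval and 226 moved outside it, and the sign changed in 16, all of results that were not past a limit. Nqo1, for example, ran from -0.20 to 0.08. Members higher in Tom+ at matched position were 5 with 3 bins (Gsta3 and Gstm2 added), where 2.64% of all genes were. At a log2 limit of 1 there were 0, where 0.0382% of all genes were, so that count does not set the members apart. Members with a central gradient at a limit of log2 0.3 were 18 in Tom- and 21 in Tom+, and portal ones 2 and 2, while with 3 bins no member (0) had a portal gradient in Tom-. The share of all genes past the gradient limit of log2 0.3 was not computed, so those counts have no background beside them. Other network genes higher in Tom+ were 2 with 3000 to 8000 genes per cell, 2 without cells over 60000 UMIs, 2 with the clusters of few genes kept, 2 at a minimum of 50 CPM, 1 without the nearly all Tom+ clusters, and 0 at a log2 limit of 1. The shares of all genes in these settings were, in the same order, 2.28%, 2.24%, 1.31%, 2.32%, 1.42% and 0.0382%. In the setting without the nearly all Tom+ clusters 1 network gene, Chac1, was lower, where 0.525% of all genes were. Gstm1 and Gstm3 were past log2 0.3 in every setting except the limit of 1, with ranges from 0.39 to 0.59 and from 0.45 to 0.81, and the lowest values came without the nearly all Tom+ clusters. Besides that limit, Gstt2 was under the limit or the minimum in 6 settings: thinning, the mean over cells, cells over 60000 UMIs left out, few-gene clusters kept, the nearly all Tom+ clusters left out, and 50 CPM. Leaving out Kupffer-like and cholangiocyte-like clusters, or shared barcodes, was added after seeing the data and left 3 members higher. In these settings 2.28% and 2.26% of all genes were higher. With 1 library per group, animal, library and sort cannot be told apart.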

Other observations

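The 14 members under the minimum held a few that moved with position or library. Gpx3, the secreted glutathione peroxidase, was at 2.77 CPM in Tom- and 4.86 CPM in Tom+ hepatocytes, with log2 gradients of 3.16 and 2.61 and a ratio at matched position of 0.05. Gsta2 was at 5.24 and 6.39 CPM, fell towards the central vein by 0.87 and 0.90 on the log2 scale, and was higher in Tom+ in each of the 6 bins, by 0.40 to 0.64. Gstp2, which shares most of its transcript with Gstp1, was at 0.202 and 0.688 CPM on 77 and 262 UMIs, with log2 gradients of 4.05 (2.73 to 5.91) and 3.61 (2.49 to 5.38) and a ratio at matched position of 0.82. Slc7a11, the cystine importer and an NRF2 target, had 7 UMIs in 5 Tom- cells and 68 UMIs in 43 Tom+ cells, or 0.0184 CPM (0.00739 to 0.0379) and 0.179 CPM (0.139 to 0.227). Of the 68 UMIs, 14 lay in a single cell and 28 in the nearly all Tom+ clusters. These Slc7a11 levels are not matched for position. Bins 5 and 6, where the Tom+ library had more cells, held 85.7% of its UMIs in Tom- and 85.3% in Tom+. In bin 6 alone Slc7a11 was at 0.164 CPM in Tom- and 0.487 CPM in Tom+, on only 4 and 45 UMIs. The part of position in the difference over all hepatocytes was not tested. Hmox1, heme oxygenase and another NRF2 target, was at 8.62 and 8.25 CPM, and 1 Tom+ cell held 50 of its 3140 UMIs.

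Some members were higher in clusters with markers of other cells, and in most of these clusters more were lower. Of 46 members compared, 1 was at least 2-fold higher in both libraries in Kupffer-like cells and 3 were lower. These counts were 1 and 4 in cholangiocyte-like, 1 and 2 in endothelial-like, 0 and 4 in leukocyte-like and 2 and 1 in stellate-like cells. The shares over all genes were not computed. The Kupffer-like and cholangiocyte-like clusters are part of the hepatocyte set analysed above and of the hepatocyte level given here. In the cluster named Kupffer-like from its markers, Hmox1 was at 39.7 CPM in Tom- and 44.5 CPM in Tom+ cells, which is 4.60 and 5.39 times the hepatocyte level. Gpx8, a peroxidase of the endoplasmic reticulum, was at 7.07 and 9.03 CPM in endothelial-like cells, on 36 and 16 UMIs, against 0.289 and 0.200 CPM in hepatocytes. Gpx2 was at 3.62 and 7.28 CPM in cholangiocyte-like cells, on 7 and 5 UMIs. These clusters also held Alb at 115218 to 138168 CPM, close to the 118435 and 108057 CPM of hepatocytes, so their profiles contain hepatocyte RNA.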
